A study of Mus musculus with 12 samples.

Results

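The genes described here are the 5 subunits of the transcription factor NF-κB and 5 inhibitors and regulators of it, in mouse striatal cells with normal or expanded huntingtin before and after an inflammatory challenge. The subunits are Nfkb1, Nfkb2, Rela, Relb and Rel. The regulators are Nfkbia, Nfkbie, Nfkbiz, Tnfaip3 and Bcl3. They were taken by gene name from a table of 29428 genes, and each name stood on 1 row. All 10 were among the 16127 genes tested, which reached 0.5 TPM in 3 or more of the 12 libraries, and each member did so in every library.

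RNA-seq was performed on 2 immortalized cell lines, STHdhQ7/Q7 (labelled normal) and STHdhQ111/Q111 (labelled HD, Huntington's disease), which carry huntingtin alleles with a short or a long glutamine tract. Nontreated cells were compared with cells given 100 ng/mL murine IFNγ and 5 μg/mL LPS together for 24 h. This gave 4 groups of 3 libraries: Q7-C and Q111-C (nontreated) and Q7-T and Q111-T (treated). Each genotype is present as 1 line, so that effects of the huntingtin alleles and of other differences between the lines cannot be told apart. IFNγ and LPS were not given singly in these libraries, so their effects cannot be told apart either. The study describes the 3 libraries of a group as biological replicates. The labels do not say whether they came from separate cultures, and if they did not, the p-values measure only technical spread. As these are bulk samples, fewer cells with a transcript and less of it per cell cannot be told apart.

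NF-κB is a dimer of 2 Rel-family proteins that waits in the cytoplasm bound to an inhibitor of the IκB family. Signals such as LPS, through Toll-like receptor 4, activate the IκB kinase complex, which marks the inhibitor for destruction and frees the dimer to enter the nucleus. Several of the genes it then switches on encode its own inhibitors and subunits, and this feedback shapes how long the response lasts.

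The promoters of the members are shown for the κB consensus, the DNA element that NF-κB dimers bind. The sequences come from RefSeq (GRCm38.p6) and were searched from 250 bases before to 50 bases after the annotated start of each gene, on both strands. An entry was matched for 7 of the 10 members, and 6 of these (Nfkb2, Rel, Nfkbia, Nfkbie, Tnfaip3 and Bcl3) held at least 1 κB consensus match. Of all 27025 genes with a promoter entry of this length, 9.55% held one. The stretch around the matches is given 5′ to 3′ on the strand of the gene, with the matching bases in capitals. A match is a description of these letters and not a measured binding site.
Nfkbia: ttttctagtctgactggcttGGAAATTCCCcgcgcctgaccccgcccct
Nfkbie: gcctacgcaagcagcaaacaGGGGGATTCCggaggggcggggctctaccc
Tnfaip3: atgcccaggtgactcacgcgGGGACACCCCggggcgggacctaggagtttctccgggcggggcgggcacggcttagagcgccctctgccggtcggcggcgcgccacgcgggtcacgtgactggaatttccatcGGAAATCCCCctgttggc
Nfkb2: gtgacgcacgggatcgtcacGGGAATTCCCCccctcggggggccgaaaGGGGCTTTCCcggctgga
Rel: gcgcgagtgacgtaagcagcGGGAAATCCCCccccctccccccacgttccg
Bcl3: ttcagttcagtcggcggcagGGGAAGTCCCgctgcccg

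These stretches lie at chr12:55492648-55492696 (Nfkbia, minus strand), chr17:45555574-45555623 (Nfkbie, plus strand), chr10:19015405-19015555 (Tnfaip3, minus strand), chr19:46304678-46304743 (Nfkb2, plus strand), chr11:23771031-23771081 (Rel, minus strand) and chr7:19822736-19822773 (Bcl3, minus strand). The match of Nfkbia began 29 bases upstream of the start and that of Nfkbie 106 bases upstream. Tnfaip3 held matches at 125 and 12 bases upstream. Nfkb2 held an overlapping pair at 39 and 38 bases upstream and a further match at 11, and Rel an overlapping pair at 92 and 91. The match of Bcl3 lay just inside the transcribed part. The Rela promoter held no match in this window. The RefSeq start of Nfkb2 used here (46304737) was the nearest of 3 entries to the Ensembl start and lies inside the Ensembl span of the gene given next. Nfkb1, Relb and Nfkbiz had no entry.

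The members lie on 8 chromosomes of GRCm38. Nfkb1 (ENSMUSG00000028163) is at 135584655 to 135691546 on chromosome 3, Nfkb2 (ENSMUSG00000025225) at 46304320 to 46312385 and Rela (ENSMUSG00000024927) at 5637483 to 5648130 on chromosome 19, Relb (ENSMUSG00000002983) at 19606217 to 19629438 on chromosome 7, and Rel (ENSMUSG00000020275) at 23736847 to 23770970 on chromosome 11. Nfkbia (ENSMUSG00000021025) is at 55489410 to 55492647 on chromosome 12, Nfkbie (ENSMUSG00000023947) at 45555703 to 45563169 on chromosome 17, Nfkbiz (ENSMUSG00000035356) at 55811375 to 55838899 on chromosome 16, Tnfaip3 (ENSMUSG00000019850) at 19000910 to 19015410 on chromosome 10, and Bcl3 (ENSMUSG00000053175) at 19808462 to 19822770 on chromosome 7. Relb and Bcl3 stand 179023 bases apart on the same strand. Genes on the opposite strand overlap Nfkb2 (Psd, 3.6 to 8.4 TPM, and 4833438C02Rik, 4.75 to 14.7 TPM) and Bcl3 (Gm16175, up to 4.48 TPM, and Gm16174, up to 1.12 TPM). Nfkb1 contains Gm43430 on its own strand, at 0.119 TPM or less. The libraries were stranded, but whether strand was used in the counting is not given in the sources used here, so reads in the overlaps cannot be assigned with certainty.

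Library totals ran from 57505990 to 96417834 estimated counts (median 67234786), and 13579 to 15159 genes reached 0.5 TPM. The lowest value of a member was 0.597 TPM (Rel, Q7-T replicate 2), which stood for 172 estimated counts, fewer in read pairs if a pair gave about 4 counts. The cells are labelled neuronal. Of 10 neuron markers, 2 or 3 reached 0.5 TPM in all libraries of a group, Rbfox3, Drd1 and Drd2 were not in the table, and Snap25, Syt1 and Gad1 were at 0.432 TPM or less. Tubb3 and Map2 made up most of the neuron sum, which was 22.8 to 27.8 TPM before and 58.8 to 86.3 TPM after treatment in STHdhQ7 cells, and 10.1 to 12.2 TPM and 29.8 to 33.7 TPM in STHdhQ111 cells. Tubb3 rose in both lines (log2 fold changes 2.29 and 2.77, edgeR, adjusted p = 0.000116 and 1.5e-05), and Map2 fell in STHdhQ7 cells by 1.80 (edgeR, adjusted p = 0.00868). The 6 mesenchymal markers were all detected. They summed to 4130 to 4350 TPM before and 2870 to 2990 TPM after treatment in STHdhQ7 cells, and to 5730 to 5900 TPM and 2240 to 2530 TPM in STHdhQ111 cells. With treatment 3 and 4 of them were called lower, and between the nontreated lines 4 were called higher in STHdhQ111 cells. Of 8 macrophage or microglia markers, only Cd68 passed the filter, and Ptprc, Adgre1 and Itgam were at or near 0. The summed level of these 8 markers was 5.93 to 8.32 TPM before and 8.81 to 15.3 TPM after treatment in STHdhQ7 cells, and 14.4 to 16.8 TPM in Q111-C and 40.8 to 58 TPM in Q111-T, nearly all of it Cd68. The 5 astrocyte markers summed to 0.439 to 1.03 TPM before and 0.484 to 0.862 TPM after treatment in STHdhQ7 cells, and to 0.407 to 0.561 TPM and 1.88 to 2.24 TPM in STHdhQ111 cells, where Aldh1l1, the 1 marker of the list that was tested, passed the filter only through Q111-T. The part of these marker lists in the members' results was not tested.

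Libraries of STHdhQ7 cells stood apart. Over all genes tested, the nearest library to Q7-T replicate 2 was Q7-C replicate 1 and not another treated library. This distance was taken on log2(TPM + 0.5) without further scaling between libraries. The part that the difference in scale given below has in it was not tested. The next values are deviations from the mean of the other libraries of the same group after TMM scaling (edgeR's scaling, which equalizes most genes). On the log2 scale, Q7-T replicate 2 was low in Rel (-1.68), Tnfaip3 (-1.27), Nfkbiz (-1.0), Nfkb1 (-0.91) and Nfkbia (-0.77), but high in Bcl3 (0.45) and Nfkb2 (0.33). Q7-C replicate 1 was also low, though less so, in Tnfaip3 (-0.79), Rel (-0.71), Nfkbiz (-0.6) and Nfkb1 (-0.47). It was high in Relb (0.61), Bcl3 (0.59) and Nfkbia (0.46), the last of which was low in Q7-T replicate 2. The same libraries also differ most between the scales. TMM-scaled counts per TPM were 1.77 times those of the median library in Q7-T replicate 2 and 1.38 times in Q7-C replicate 1, against 0.872 to 1.11 in the other 10, so that every member reads lower there in TPM than in scaled counts. Where a member's call changed without one of these libraries, the value without it is given beside the result.

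**Figure D1:**
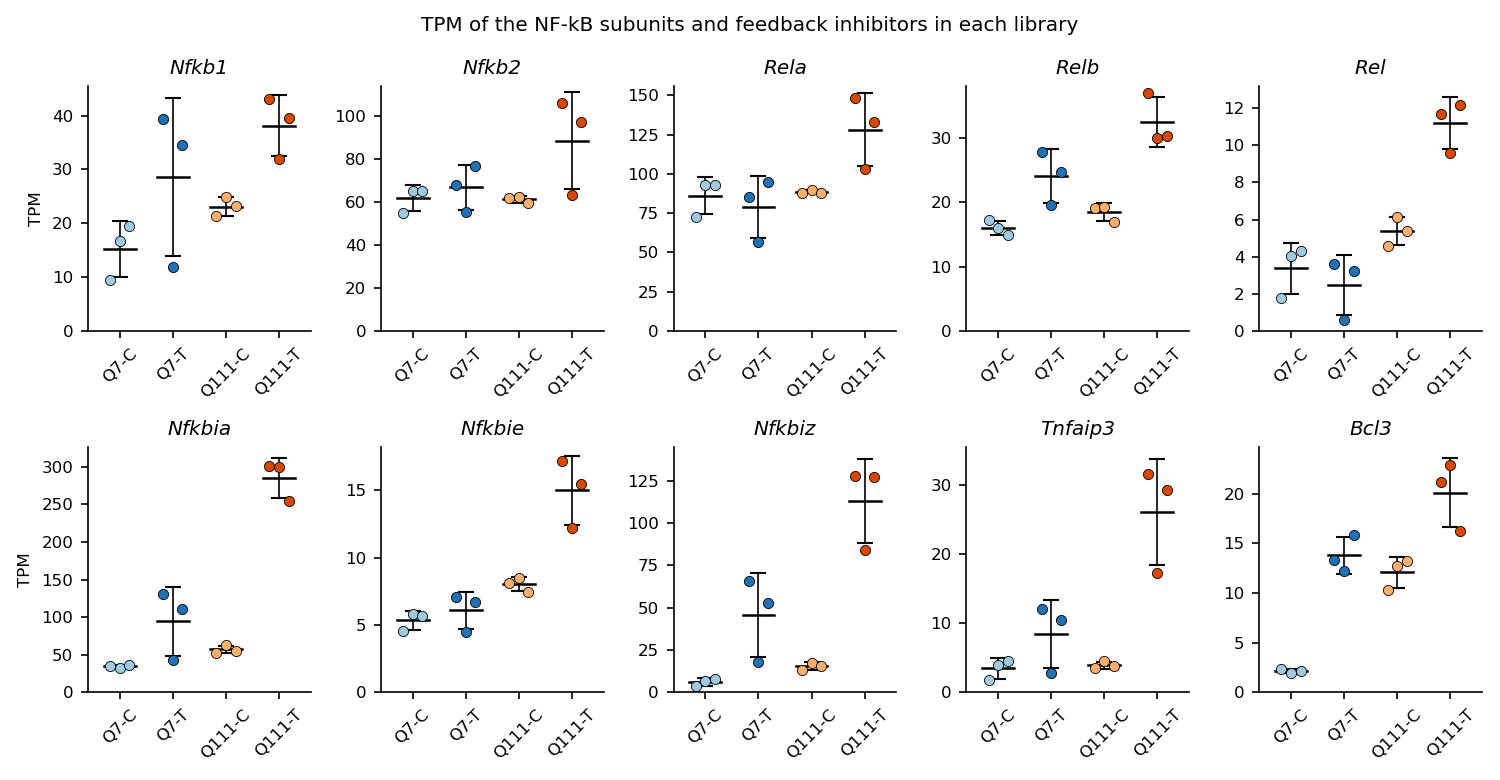
TPM (y axis, linear, from 0) of each of the 10 genes in the 12 libraries, by group on the x axis. Points are libraries in replicate order, the horizontal line is the group mean and the bar is the SD (n = 3). In every panel the 3 Q111-T libraries lie above the 3 Q111-C libraries, whereas the Q7-T points are spread widely for Nfkb1, Nfkbia, Nfkbiz and Tnfaip3.

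In nontreated cells Rela and Nfkb2 were the most abundant of the 10 transcripts in both lines. TPM is scaled for transcript length, so levels of different genes can be set side by side. Rela, the main transactivating subunit, stood at 86.1 ± 11.8 TPM (SD, n = 3) in Q7-C and 88.7 ± 1.13 in Q111-C. Nfkb2, the precursor of p52 in the noncanonical pathway, followed at 61.8 ± 6.11 and 61.3 ± 1.57. Nfkbia, which encodes IκBα, came next at 34.8 ± 1.64 and 57.2 ± 5.02. The lowest members were Bcl3 in Q7-C (2.17 ± 0.2) and Tnfaip3 in Q111-C (3.93 ± 0.507). Neighbours in this order whose libraries overlapped included Relb and Nfkb1, and all of those from Nfkbiz down to Bcl3, in Q7-C. In Q111-C, Nfkb2 and Nfkbia, Relb and Nfkbiz, and Nfkbiz and Bcl3 overlapped.

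After treatment the inhibitor Nfkbia led the order in both lines, at 94.7 ± 45.9 TPM in Q7-T and 285 ± 26.8 in Q111-T. In Q111-T its 3 libraries lay above all of those of Rela, the next in order. In Q7-T they overlapped with those of Rela, because replicate 2 was low. Rel, which encodes c-Rel, was the lowest member in both treated groups, at 2.47 ± 1.64 and 11.2 ± 1.4 TPM.

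The first comparison asks how STHdhQ7 cells responded to IFNγ/LPS (Q7-T vs. Q7-C). A gene was called when edgeR's quasi-likelihood test gave it an adjusted p (Benjamini-Hochberg) under 0.05 and its change was at least 2-fold. Of the 10 members, 5 were called higher (Nfkb1, Nfkbia, Nfkbiz, Tnfaip3 and Bcl3), against 2.93% of all genes tested. None was called lower by edgeR or DESeq2, nor at an unadjusted p under 0.05 (0 of 10), against 1.11% of all genes called lower. By the adjusted p alone 6 members passed (Relb was added), against 3.61%. The 3 treated libraries lay above the 3 nontreated ones in TPM for 4 members, against 5.55%. The median log2 fold change of the members was 0.89, against 0.003 over all genes tested.

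Nfkbiz and Bcl3, which encode the atypical nuclear IκB proteins IκBζ and Bcl-3, changed most in STHdhQ7 cells. Nfkbiz had 3.51, 6.89 and 8.14 TPM in Q7-C and 66.0, 17.9 and 52.6 TPM in Q7-T. The groups did not overlap, although replicate 2 of Q7-T was far below the other two. The fold change was 8.02, with a log2 value of 3.00 ± 0.29 (SE) and an adjusted p of 4.53e-05 (edgeR). Bcl3 had 2.38, 1.98 and 2.15 TPM in Q7-C and 13.3, 12.2 and 15.8 TPM in Q7-T. Its treated libraries were close together, with replicate 2 no exception. The fold change was 7.11, with a log2 value of 2.83 ± 0.273 (SE) and an adjusted p of 4.53e-05 (edgeR). Both genes were called under all 24 alternatives.

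Nfkbia and Tnfaip3 are textbook feedback inhibitors: IκBα recaptures nuclear NF-κB, and A20, the product of Tnfaip3, edits ubiquitin chains upstream of the kinase complex. Nfkbia had 34.8, 33.1 and 36.4 TPM in Q7-C and 131, 43.0 and 111 TPM in Q7-T. Even the low replicate 2 stood above all nontreated libraries. The log2 fold change was 1.52 ± 0.231 (SE, edgeR, adjusted p = 0.00169), and 1.74 without Q7-T replicate 2. With limma on the TPM scale its adjusted p was up to 0.0543. Tnfaip3 had 1.75, 4.03 and 4.59 TPM in Q7-C and 12, 2.78 and 10.4 TPM in Q7-T, so that replicate 2 fell among the nontreated libraries. Its log2 fold change was 1.40 ± 0.338 (SE, edgeR, adjusted p = 0.0345). The call held in 2 of 12 fits that left out 1 library each, where the adjusted p reached 0.105, with a value of 1.17 (edgeR, adjusted p = 0.103) without Q7-C replicate 1 and of 1.72 (edgeR, adjusted p = 0.00153) without Q7-T replicate 2.

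Among the subunits of STHdhQ7 cells, Nfkb1, the precursor of p50, was called. It had 9.4, 16.7 and 19.4 TPM in Q7-C and 39.4, 11.9 and 34.5 TPM in Q7-T, and replicate 2 again lay within the nontreated range. The log2 fold change was 1.04 ± 0.23 (SE, edgeR, adjusted p = 0.0208). Without Q7-T replicate 2 it was 1.29 (edgeR, adjusted p = 0.000324), and without Q7-C replicate 1, Q7-C replicate 2, Q7-T replicate 1 or Q7-T replicate 3 the call was lost, with an edgeR adjusted p of up to 0.0745. The value without Q7-C replicate 1 was 0.90 (edgeR, adjusted p = 0.0709). With limma on the TPM scale the adjusted p of Nfkb1 was up to 0.444 and that of Tnfaip3 up to 0.392. Relb, the partner of p52, had 17.2, 16.0 and 14.9 TPM in Q7-C and 27.8, 19.6 and 24.8 TPM in Q7-T. It passed the adjusted p but stayed under 2-fold, with a log2 fold change of 0.74 ± 0.188 (SE, edgeR, adjusted p = 0.0441), but its adjusted p stayed under 0.05 in only 1 of the 12 fits without 1 library (without Q7-C replicate 1) and reached 0.189. The remaining subunits and Nfkbie did not pass. Their log2 fold changes (edgeR) were 0.31 ± 0.161 for Nfkb2 (adjusted p = 0.413), 0.04 ± 0.121 for Rela (adjusted p = 0.918), -0.36 ± 0.378 for Rel (adjusted p = 0.74) and 0.36 ± 0.143 for Nfkbie (adjusted p = 0.231). For Rel the sign turned without Q7-T replicate 2 (0.03), and for Rela it turned on the TPM scale (-0.15). Rela had 72.5, 92.8 and 93.1 TPM in Q7-C and 85.1, 56.5 and 94.7 TPM in Q7-T.

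The same question was asked for STHdhQ111 cells (Q111-T vs. Q111-C). All 10 members lay higher in the 3 treated than in the 3 nontreated libraries in TPM, against 19.8% of all genes tested. By the adjusted p alone 9 of 10 rose, the exception being Rel, against 11.3% of all genes. With the 2-fold threshold added, 3 were called higher (Nfkbia, Nfkbiz and Tnfaip3), against 8.28%. None was called lower by edgeR or DESeq2, nor at an unadjusted p under 0.05 (0 of 10), against 2.96%. DESeq2 called 4 higher, with Rel, against 1439 of the 16127 genes tested. The median log2 fold change of the members was 0.95, against -0.005 over all genes.

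The 3 members called in STHdhQ111 cells were also called in STHdhQ7 cells. Nfkbia had 53.0, 62.8 and 55.7 TPM in Q111-C and 301, 300.0 and 254 TPM in Q111-T. The lowest treated library stood far above the highest nontreated one. The log2 fold change was 2.43 ± 0.237 (SE, edgeR, adjusted p = 2.43e-05). Nfkbiz had 13, 17.5 and 15.8 TPM in Q111-C and 128, 84.1 and 127 TPM in Q111-T, a log2 fold change of 2.96 ± 0.289 (SE, edgeR, adjusted p = 2.46e-05). Tnfaip3 had 3.49, 4.48 and 3.81 TPM in Q111-C and 31.6, 17.3 and 29.3 TPM in Q111-T, a log2 fold change of 2.81 ± 0.354 (SE, edgeR, adjusted p = 0.000178). Replicate 2 of Q111-T was the lowest for Nfkbiz and Tnfaip3 but not for Nfkbia. These 3 calls held under all 24 alternatives.

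Of the 5 subunits, 4 rose by less than 2-fold in STHdhQ111 cells. The log2 fold changes (edgeR, SE) were 0.91 ± 0.189 for Relb (adjusted p = 0.0053), 0.81 ± 0.229 for Nfkb1 (adjusted p = 0.0281), 0.62 ± 0.122 for Rela (adjusted p = 0.00381) and 0.61 ± 0.162 for Nfkb2 (adjusted p = 0.0202). The adjusted p stayed under 0.05 in 6 (Nfkb1) and 7 (Nfkb2) of the 12 fits without 1 library, reaching 0.114 and 0.096 (edgeR). With limma on the TPM scale it was up to 0.305 for Nfkb1, 0.125 for Nfkb2 and 0.128 for Rela. Rela went from 88.0, 90.0 and 88.1 TPM in Q111-C to 148, 103 and 133 TPM in Q111-T. Nfkb2 went from 62.1, 62.3 and 59.5 TPM to 106, 63.1 and 97.2 TPM, and its replicate 2 was barely above the highest nontreated library. Rel had 4.59, 6.14 and 5.4 TPM in Q111-C and 11.7, 9.59 and 12.2 TPM in Q111-T. Its groups were well separated, with a log2 fold change of 1.15 ± 0.38 (SE, edgeR, adjusted p = 0.0568). The fit shares its estimate of spread with STHdhQ7 libraries, and Rel was called without Q7-T replicate 2 (1.15, edgeR, adjusted p = 0.00115) and without Q7-C replicate 1 (1.15, edgeR, adjusted p = 0.0497). In the other 10 of the 12 fits without 1 library it did not pass, with an adjusted p of up to 0.187 (edgeR). It was also called with counts divided by 4 (edgeR, adjusted p = 0.0441). In the fit of only the Q111-C and Q111-T libraries it was called as well (1.154, edgeR, adjusted p = 0.000188).

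Nfkbie, which encodes IκBε, and Bcl3 completed the set. Nfkbie had 8.16, 8.5 and 7.46 TPM in Q111-C and 17.2, 12.2 and 15.5 TPM in Q111-T, just under the 2-fold threshold at a log2 fold change of 0.99 ± 0.143 (SE, edgeR, adjusted p = 0.00051). Without Q111-T replicate 2 it passed the 2-fold threshold and was called. Bcl3 had 10.3, 12.7 and 13.2 TPM in Q111-C and 21.2, 22.9 and 16.2 TPM in Q111-T, a log2 fold change of 0.85 ± 0.255 (SE, edgeR, adjusted p = 0.038). Leaving out 1 library at a time gave values from 0.62 to 1.00 and an edgeR adjusted p of up to 0.161 (without Q111-T replicate 2), and it stayed under 0.05 in 6 of these 12 fits.

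**Figure D2:**
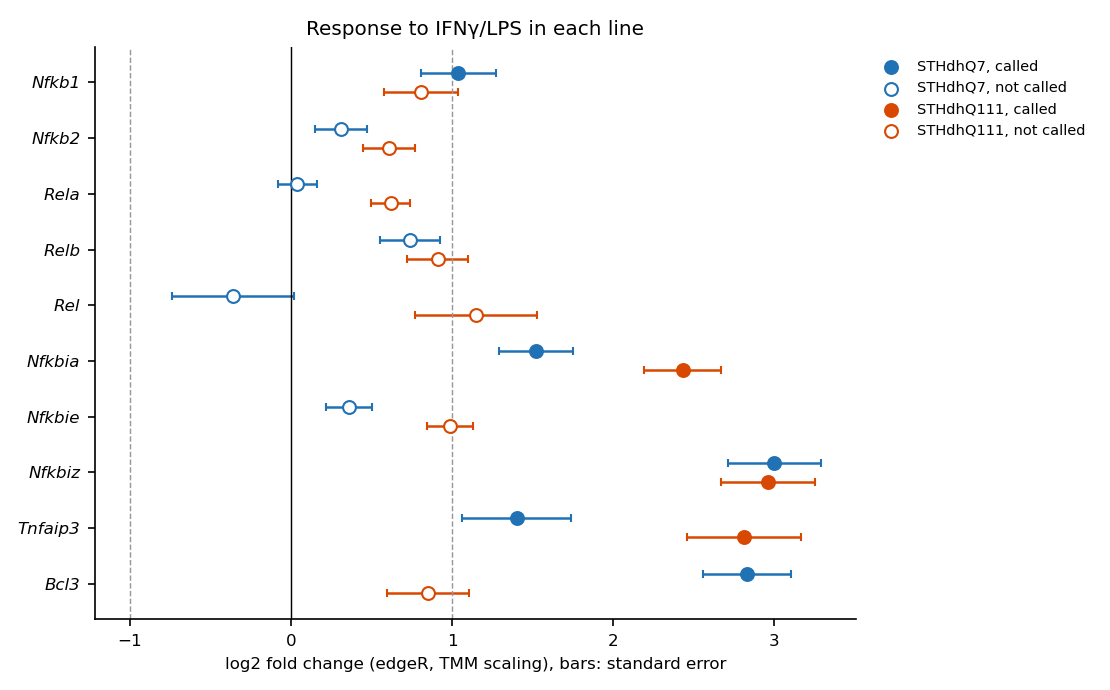
Log2 fold change of each member after IFNγ/LPS (x axis) in STHdhQ7 (blue) and STHdhQ111 cells (orange), with bars for the standard error from the edgeR fit and dashed lines at 2-fold. Filled points were called. Bcl3 has the widest gap between the lines, at 2.83 against 0.85, and Nfkbiz the narrowest, at 3.00 against 2.96.

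Whether the responses differed between the lines was tested with the interaction of line and treatment. Bcl3 was the 1 member called, with a smaller response in STHdhQ111 cells, against 1.2% of all genes with a call in that direction. No member was called with a larger response in STHdhQ111 cells by edgeR, against 3.52%. DESeq2 called 2 in that direction, against 905 of the 16127 genes tested. At an unadjusted p under 0.05, 5 members had a larger response, and the share of all genes was not computed for this rule. The interaction of Bcl3 was -1.98 ± 0.364 on the log2 scale (SE, edgeR, adjusted p = 0.00898), and it was called in all 23 alternatives, with values from -2.24 to -1.54. Responses of Rel (1.51 ± 0.535, adjusted p = 0.138), Tnfaip3 (1.41 ± 0.471, adjusted p = 0.115), Nfkbia (0.92 ± 0.32, adjusted p = 0.132), Nfkbie (0.62 ± 0.202, adjusted p = 0.104) and Rela (0.58 ± 0.172, adjusted p = 0.0768) had positive estimates (edgeR) that did not pass the adjustment over all genes. Without Q7-T replicate 2, Rel was called (1.12, edgeR, adjusted p = 0.0375) and Rela passed the adjusted p under 2-fold (0.58, edgeR, adjusted p = 0.0476), and Rel (1.37) and Tnfaip3 (1.36) were called when Q7-T replicate 2 and Q7-C replicate 1 were left out together, with edgeR adjusted p of 0.000751 and 0.00487. The pair that DESeq2 called was also Rel and Tnfaip3, with adjusted p of 0.0494 and 0.0364. Rela (0.57, DESeq2, adjusted p = 0.00484) and Nfkbie (0.61, DESeq2, adjusted p = 0.00595) passed the adjusted p of DESeq2 under 2-fold. They also passed it with edgeR without both libraries (0.59 and 0.65, adjusted p = 0.0259 and 0.034). For Nfkbiz the estimate was -0.05 ± 0.38 (edgeR, adjusted p = 0.973), and its sign changed with the scale.

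The lines were then compared before treatment (Q111-C vs. Q7-C). Here 2 members were called higher in STHdhQ111 cells (Bcl3 and Nfkbiz), against 7.62% of all genes tested, and the same 2 passed the adjusted p alone, against 11.1%. The most separated was Bcl3, whose nontreated STHdhQ111 libraries had 10.3 to 13.2 TPM. Its log2 fold change was 2.11 ± 0.266 (SE, edgeR, adjusted p = 0.000145), and it was called in all 24 alternatives. Nfkbiz was higher by a log2 fold change of 1.05 ± 0.273 (SE, edgeR, adjusted p = 0.0158), which was 0.87 without Q7-C replicate 1 (adjusted p = 0.0576, edgeR) and 1.00 without Q111-C replicate 2 (adjusted p = 0.0532). In TPM, 6 members lay higher in all 3 Q111-C than in all 3 Q7-C libraries, against 38.8% of all genes. The median of all genes tested was 0.274 higher in Q111-C on the log2(TPM + 0.5) scale and -0.02 after TMM scaling, so the count in TPM carries this shift. The log2 fold changes of the other members lay between -0.33 (Nfkb2) and 0.41 (Rel). Those of Rela (-0.27), Relb (-0.15) and Tnfaip3 (-0.08) were positive on the TPM scale.

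After treatment (Q111-T vs. Q7-T), 4 members were called higher in STHdhQ111 cells (Rel, Nfkbia, Nfkbiz and Tnfaip3), against 13.3% of all genes tested. By the adjusted p alone there were 5, with Nfkbie, against 19.8%. Rel was the most separated, at 11.7, 9.59 and 12.2 TPM in Q111-T against 3.61, 0.597 and 3.21 TPM in Q7-T, with a log2 fold change of 1.92 ± 0.389 (SE, edgeR, adjusted p = 0.00266), or 1.53 without Q7-T replicate 2. Tnfaip3 followed with 1.34 ± 0.336 (SE, edgeR, adjusted p = 0.00907), and Nfkbia with 1.29 ± 0.229 (SE, edgeR, adjusted p = 0.00111). Without Q7-T replicate 2 these were 1.02 and 1.08. Nfkbiz was at the threshold, with 1.00 ± 0.271 (SE, edgeR, adjusted p = 0.013), and was under 2-fold without Q7-T replicate 2 (0.74), Q111-T replicate 1 (0.96) or Q111-T replicate 3 (0.97), and with upper-quartile scaling (0.97). Nfkbie passed the adjusted p under 2-fold, at 0.89 ± 0.143 (SE, edgeR, adjusted p = 0.000572), and was called with limma on log2(TPM + 0.5) (1.24, adjusted p = 0.000849).

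Bcl3, the member with the largest difference between the nontreated lines, did not pass the test between the treated lines, at 0.13 ± 0.253 (SE, edgeR, adjusted p = 0.703). Its Q111-T libraries (16.2 to 22.9 TPM) lay just above its Q7-T libraries (12.2 to 15.8 TPM). In TPM, 8 members were higher in all 3 Q111-T than in all 3 Q7-T libraries, against 33.9% of all genes, and the median of all genes was shifted by 0.341 on that scale against -0.029 after TMM scaling. The log2 fold changes of Nfkb1 (0.11), Nfkb2 (-0.03), Relb (0.03) and Rela (0.31, edgeR, adjusted p = 0.0667) did not pass. That of Nfkb2 was positive on the TPM scale (0.38) and those of Nfkb1 and Nfkb2 changed sign without Q7-T replicate 2.

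**Figure D3:**
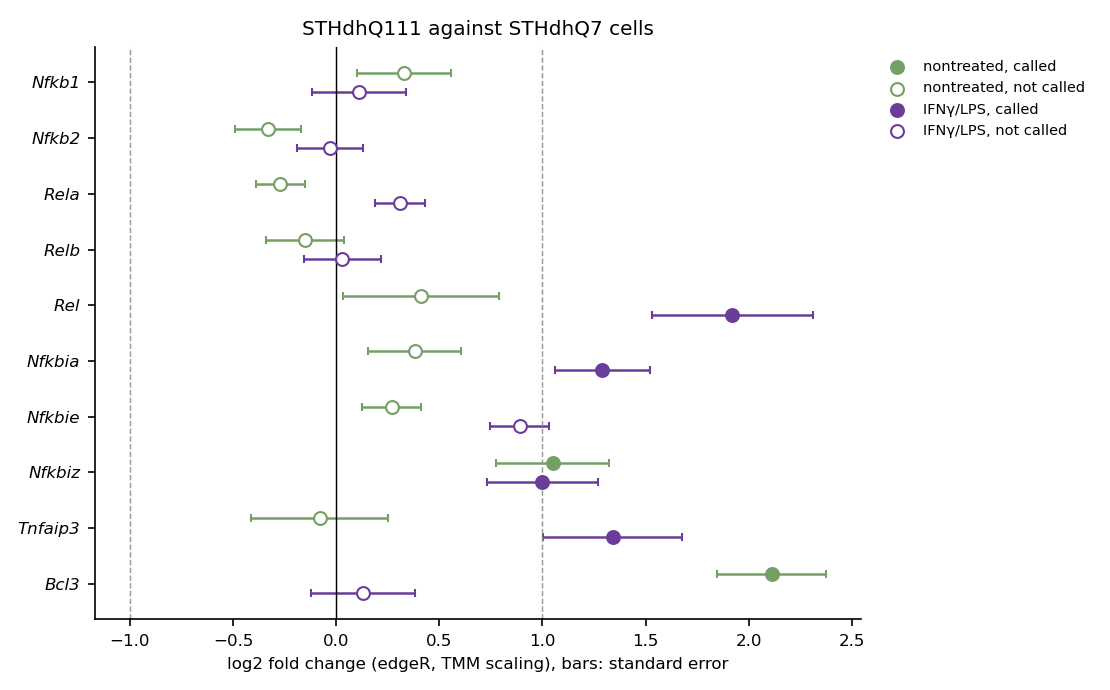
Log2 fold change of each member between the lines (x axis, positive when higher in STHdhQ111), in nontreated cells (green) and after IFNγ/LPS (purple), with bars for the standard error from the edgeR fit and dashed lines at 2-fold. Filled points were called. Bcl3 moves from 2.11 to 0.13 with treatment, and Rel from 0.41 to 1.92.

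Measures taken within a library do not depend on scaling between libraries. One is the share of each subunit in the summed TPM of the 5 subunits. Rela held 47.1 ± 0.514% of it (SD, n = 3) in Q7-C and 39.2 ± 1.26% in Q7-T, without overlap, and 45 ± 0.603% in Q111-C and 42.9 ± 0.364% in Q111-T, again without overlap (two-sided exact permutation test, p = 0.1 in each line, the smallest that 3 libraries against 3 allow). The share of Nfkb2 was 34.0 ± 1.07% before and 33.9 ± 4.18% after treatment in STHdhQ7 cells, and 31.1 ± 0.603% and 29.4 ± 2.48% in STHdhQ111 cells. It overlapped between treated and nontreated libraries in both lines (exact permutation test, p = 1.0 and p = 0.4), and was lower in Q111-C than in Q7-C without overlap (p = 0.1). The share of Relb was 8.94 ± 1.83% before and 12.2 ± 1.48% after treatment in STHdhQ7 cells, and 9.38 ± 0.564% and 11.0 ± 1.48% in STHdhQ111 cells, with overlap in both lines (exact permutation test, p = 0.2 each). The share of Nfkb1 was 8.14 ± 1.93% before and 13.5 ± 4.76% after treatment in STHdhQ7 cells, with overlap (p = 0.3), and 11.7 ± 0.729% and 12.8 ± 0.527% in STHdhQ111 cells, without overlap (exact permutation test, p = 0.1). Rel took 1.8 ± 0.561% and 1.13 ± 0.633% in STHdhQ7 cells, with overlap, and 2.73 ± 0.346% and 3.78 ± 0.345% in STHdhQ111 cells, without overlap. In Q7-T replicate 2 the share of Rel was 0.414%. Between the nontreated lines, Nfkb1 and Rel had higher and Rela lower shares in Q111-C, also without overlap (exact permutation test, p = 0.1 each). Between the treated lines, Rela and Rel had higher shares in Q111-T without overlap (exact permutation test, p = 0.1 each). These shares are per transcript length. In shares of the TMM-scaled counts, which are not, Nfkb1 took 21.9% in Q7-C and 32.5% in Q7-T and Rela 32.4% and 24.4%.

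**Figure D4:**
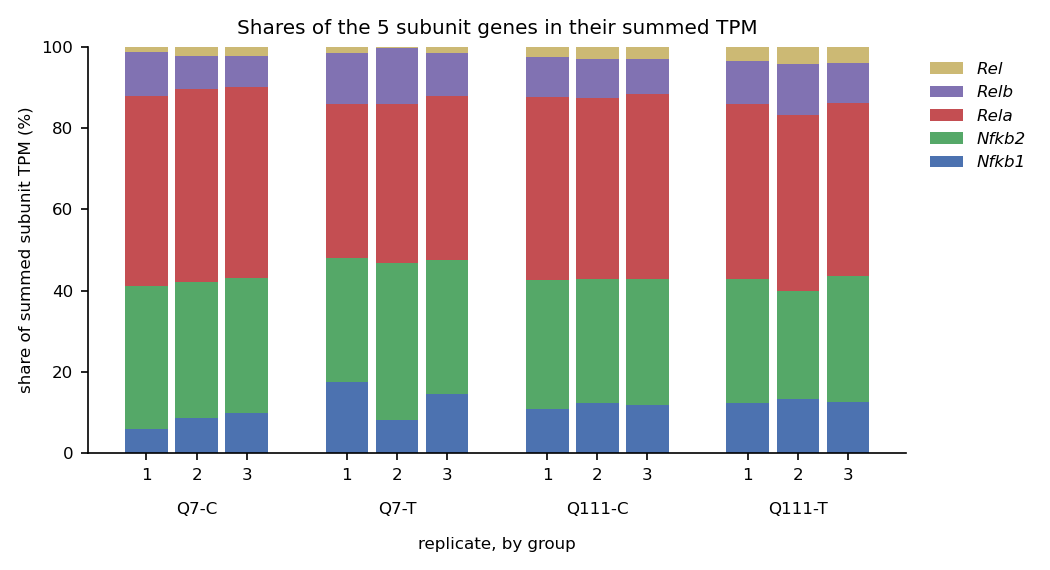
Share of each of the 5 subunit genes in their summed TPM (y axis, percent, from 0 to 100) in each library, with replicates ordered within the 4 groups on the x axis. Rela and Nfkb2 together make up most of every bar, and the Rela share is lower in Q7-T (38 to 40.5%) than in Q7-C (46.6 to 47.6%).

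A second such measure is the TPM of the inhibitor Nfkbia over that of its main target Rela. It was 0.48, 0.357 and 0.391 in Q7-C and 1.53, 0.76 and 1.17 in Q7-T. In STHdhQ111 cells it was 0.602, 0.697 and 0.633 before and 2.03, 2.92 and 1.91 after treatment. The ratio was higher in STHdhQ111 than in STHdhQ7 libraries under both conditions, with no overlap, and every treated library exceeded every nontreated one. The ratio was chosen as a description and was not tested.

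The rest of the pathway was described by 4 lists with 59 genes. Of 11 genes for the IκB kinases and the kinases and adaptors upstream of them, 1 was called higher in each line (edgeR and DESeq2), against the 2.93% and 8.28% of all genes called higher in STHdhQ7 and STHdhQ111 cells, shares that apply to the counts of the other lists too, with a median log2 fold change of -0.02 in STHdhQ7 and 0.49 in STHdhQ111 cells, beside 0.003 and -0.005 over all genes. The gene called was Ikbke, which encodes the kinase IKKε. It rose from 0.661 to 1.39 TPM (group means) in STHdhQ7 cells and from 5.24 to 24.4 TPM in STHdhQ111 cells, and its interaction was 1.03 ± 0.245 (log2, SE, edgeR, adjusted p = 0.0314). In STHdhQ7 cells Ikbke was not called with limma on the TPM scale (0.71, adjusted p = 0.161). Of 9 genes for linear ubiquitin and TRAF-cIAP ligases, 1 was called higher in STHdhQ7 cells (Rnf31, which encodes the catalytic subunit HOIP, at 1.26 ± 0.182, edgeR, adjusted p = 0.00115, with 0.0673 for limma on the TPM scale) and 0 in STHdhQ111 cells, where Rnf31 had 0.68 (edgeR, adjusted p = 0.0215), 2 genes had an unadjusted p under 0.05 and DESeq2 also called 0. Their medians were 0.17 and 0.08.

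Of 15 further IκB proteins and brakes on the pathway, 1 was called higher in STHdhQ7 cells, and 4 higher and 1 lower in STHdhQ111 cells, with medians of 0.23 and 0.38. Without Q7-C replicate 1, 2 were called higher in STHdhQ7 cells. Zc3h12a, whose product Regnase-1 degrades inflammatory mRNAs, rose in both lines, with log2 fold changes of 3.14 ± 0.149 and 3.21 ± 0.149 (SE, edgeR, adjusted p = 2.07e-07 and 2.18e-07). N4bp1, another inhibitor of NF-κB activation, had 0.15 ± 0.172 in STHdhQ7 and 1.57 ± 0.176 in STHdhQ111 cells, and its interaction was called (1.43 ± 0.245, edgeR, adjusted p = 0.00624), except with limma on the TPM scale (adjusted p = 0.0902). Tnip3, for an A20-binding protein, was at 0.0595 TPM or less in every STHdhQ7 library and reached 2.37 to 2.51 TPM in Q111-T. Its interaction did not pass in edgeR with all libraries (4.1 ± 1.44, SE, adjusted p = 0.134) but passed with DESeq2 (adjusted p = 0.0291). Tnip3 passed the filter on low values only through the Q111-T libraries, so its calls are a description. Pdlim2, whose product promotes the removal of nuclear p65, fell in STHdhQ111 cells by 1.47 on the log2 scale (SE 0.178, edgeR, adjusted p = 0.000131) and in STHdhQ7 cells by 0.80 (SE 0.174, adjusted p = 0.019, or 0.0535 without Q7-C replicate 1), and its interaction did not pass with all libraries (-0.67, edgeR, adjusted p = 0.154). It passed under 2-fold without Q7-C replicate 1 (-0.84, edgeR, adjusted p = 0.0469) and without Q7-C replicate 1 and Q7-T replicate 2 together (-0.65, edgeR, adjusted p = 0.0164).

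Of 24 textbook NF-κB target genes, 21 passed the filter. In STHdhQ7 cells 14 of these were called higher and in STHdhQ111 cells 20, and none was called lower in either line by edgeR or DESeq2 or had a lower value at an unadjusted p under 0.05. The exception in STHdhQ111 cells, named after its values were seen, was Traf1 (-0.33, edgeR, adjusted p = 0.619). The median log2 fold change was 2.38 in STHdhQ7 and 5.01 in STHdhQ111 cells. Without Q7-C replicate 1 or Q7-T replicate 2, 13 were called in STHdhQ7 cells, and 15 without both. The interaction was called for 7 of 21, against 3.52% of all genes in that direction, all with a larger response in STHdhQ111 cells (9 with DESeq2, 8 without the one or the other library and 9 without both): the cytokine genes Il6, Csf2, Csf3 and Ccl2, the prostaglandin synthase gene Ptgs2, Nos2 for inducible nitric oxide synthase, and Sod2 for mitochondrial superoxide dismutase, which was under 2-fold without Q7-C replicate 1 (0.98). Il6 was at 3.61 to 21.5 TPM in Q7-T and 537 to 742 TPM in Q111-T. Ptgs2 had 13.9 TPM in Q7-C and 12.1 in Q7-T on average, against 20.7 and 301 in STHdhQ111 cells, an interaction of 4.05 ± 0.529 (log2, SE, edgeR, adjusted p = 0.00138). Csf2 was at 0.96 TPM or less in Q7-T and at 24.8 to 40.3 TPM in Q111-T. Csf2 and Cxcl2, 2 of the 21 genes, passed the filter only through Q111-T, and were therefore bound to be higher there. Both are among the 20 called in STHdhQ111 cells, and Csf2 is among the 7 with a called interaction, so these counts include them. Lcn2, for lipocalin-2, rose in both lines, with log2 fold changes of 7.37 ± 0.415 in STHdhQ7 and 7.83 ± 0.423 in STHdhQ111 cells (SE, edgeR). Its interaction was 0.46 ± 0.452 (edgeR, adjusted p = 0.632), or 0.92 without Q7-T replicate 2 (edgeR, adjusted p = 0.115) and 1.04 without both libraries (edgeR, adjusted p = 0.0568). Cd68, the 1 of 8 macrophage or microglia markers that passed the filter, moved with these groups as given above, and its part in the results was not tested.

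**Figure D5:**
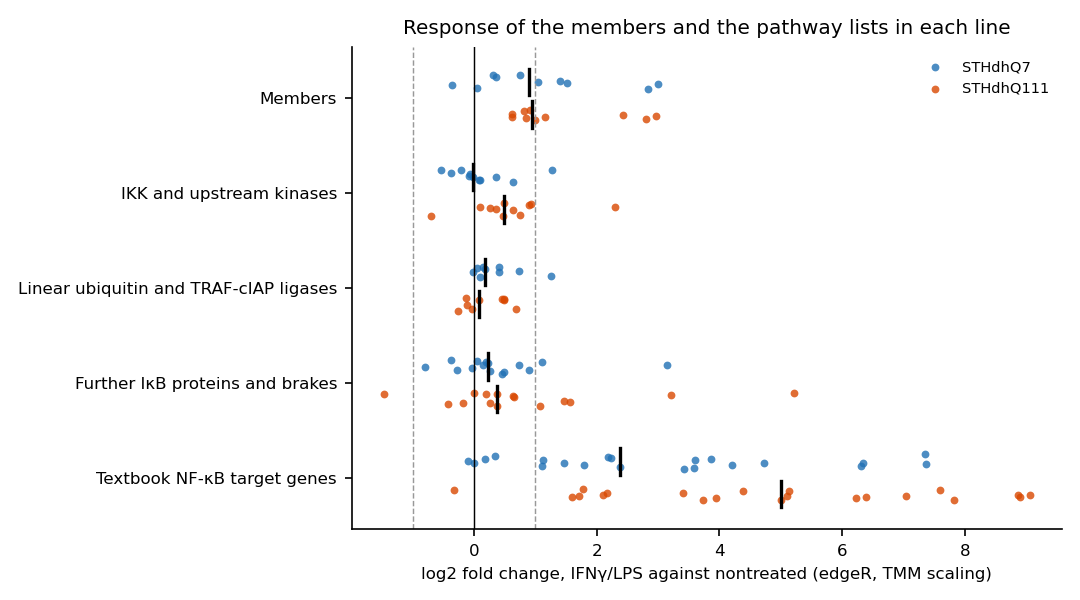
Log2 fold change after IFNγ/LPS (x axis) of the members and of the tested genes of 4 pathway lists (y axis) in STHdhQ7 (blue) and STHdhQ111 cells (orange). Each point is a gene, black bars are medians and dashed lines mark 2-fold. The target genes spread widely, with medians of 2.38 and 5.01, whereas the kinase and ligase lists lie mostly between the dashed lines.

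Across the 12 libraries, genes whose log2(TPM + 0.5) was most like that of Nfkbia included Ifnar2, which encodes an interferon receptor chain (Pearson's r = 0.992), Maff (0.988), Tubb2a (0.986) and the adaptor gene Myd88 (0.983). Myd88 had mean levels of 20.9 and 39.1 TPM in nontreated and treated STHdhQ7 cells and of 34.1 and 96.1 TPM in STHdhQ111 cells, the same order of the 4 groups as for Nfkbia. Those most like Nfkb2 were Gm9791 (0.971), Uaca (0.964), Ddx24 (0.956), 9930111J21Rik1 (0.956) and Gm20394 (0.949), and the last pair had group means of at most 1.59 TPM. Among the members, Nfkbia was most like Relb (0.96), and Bcl3 was least like Rela (0.34). These values describe 12 libraries that share 4 groups and the scale of each library.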

How the data were processed

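Stranded poly(A) libraries were sequenced as read pairs (NovaSeq). The authors trimmed with Cutadapt, mapped with HISAT2 to GRCm38 and estimated expression with StringTie and Ballgown. They deposited TPM and estimated counts per gene and library. The TPM present summed to 688352 to 719623 per library. The unit of the counts is not stated. Low counts favoured multiples of 4, so counts divided by 4 were an alternative. Whole-number counts were tested with edgeR 4.0.16 (R 4.3.3) using TMM scaling and its quasi-likelihood test, with all 12 libraries in 1 fit, a mean per group and Benjamini-Hochberg adjustment over the 16127 genes that reached 0.5 TPM in 3 or more libraries. Calls needed an adjusted p under 0.05 and a 2-fold change. DESeq2 1.42.0 and limma 3.58.1 on log2(TPM + 0.5) were alternatives. Shares were compared by two-sided exact permutation tests. The steps were tested on simulated counts. Named genes were all members, up to 4 genes per pathway list with the largest change among those called in either response, those called in the interaction, and the 5 genes most correlated with Nfkbia and with Nfkb2, of which 1 is not reported here. The members and lists were chosen with earlier results of these data known. Replicates of a group differed by at least 19.6 in chi-square per degree of freedom, so none was taken for a duplicate.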

Additional observations from a re-analysis of the deposited data

Results flagged for a closer look

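The response of Bcl3 differed between the lines. The log2 fold change after IFNγ/LPS was smaller by 1.98 in STHdhQ111 than in STHdhQ7 cells (interaction -1.98, SE 0.364, edgeR, adjusted p = 0.00898). All 3 libraries rose above all 3 nontreated ones in both lines, from nontreated levels of 2.17 ± 0.2 TPM (SD, n = 3) in STHdhQ7 and 12.1 ± 1.56 TPM in STHdhQ111 cells.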

How the results depend on the processing

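Counts of members called were 2, 2 and 3 in Q7-T vs. Q7-C with limma on log2(TPM + 0.5), log2(TPM + 0.1) and log2(TPM + 1). With only the groups compared in the fit the count was 3, without Nfkb1 (1.05, edgeR, adjusted p = 0.223) and Tnfaip3 (1.404, edgeR, adjusted p = 0.233). In Q111-C vs. Q7-C the count was 1 in each of the limma fits, where Nfkbiz lost its call. Its log2 fold change there was 1.317, 1.38 and 1.248 (limma, adjusted p = 0.0523, 0.05 and 0.0563). The count was also 1 when Q7-C replicate 1 and Q7-T replicate 2 were left out together, an alternative chosen after seeing the data. For the interaction the counts were 3 with DESeq2 and 3 without that pair. Leaving out 1 library at a time gave 3 to 5 members in Q7-T vs. Q7-C, 3 to 4 in Q111-T vs. Q111-C, 1 to 2 and 3 to 4 between the nontreated and the treated lines, and 1 to 2 for the interaction.

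Signs turned only for log2 values that did not pass. In the limma fits, in the same order of pseudocounts, Rela in Q7-T vs. Q7-C was -0.152, -0.153 and -0.151. In Q111-C vs. Q7-C, Rela was 0.051, 0.052 and 0.051, Relb 0.198, 0.202 and 0.192, and Tnfaip3 0.241, 0.281 and 0.205. Nfkb2 in Q111-T vs. Q7-T was 0.383, 0.385 and 0.381, and the Nfkbiz interaction 0.153, 0.102 and 0.209. With upper-quartile scaling Relb in Q111-T vs. Q7-T was -0.007. Without the pair of libraries, Relb was 0.084 between the nontreated lines, and Nfkb1 was -0.103 and Nfkb2 0.127 between the treated lines.

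Leaving out 1 library at a time, Rela ran from -0.009 to 0.106 and Rel from -0.635 to 0.033 in Q7-T vs. Q7-C. Relb ran from -0.247 to 0.088 and Tnfaip3 from -0.303 to 0.13 between the nontreated lines. Between the treated lines, Nfkb1 ran from -0.137 to 0.284, Nfkb2 from -0.135 to 0.12, Relb from -0.042 to 0.128 and Bcl3 from -0.057 to 0.323. The interaction ran from -0.062 to 0.29 for Relb and from -0.317 to 0.193 for Nfkbiz.

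On TMM-scaled counts the share of Relb was 9.65% in treated STHdhQ7 cells and 7.61% and 8.69% in nontreated and treated STHdhQ111 cells, and that of Nfkb2 in Q111-C 29.8%. Counts are not scaled for transcript length, and the shares of Nfkb1 and Rela moved further: Nfkb1 was at 21.9% and 32.5% and Rela at 32.4% and 24.4% in nontreated and treated STHdhQ7 cells. Without Q7-C replicate 1 and Q7-T replicate 2, singly or together (for the lists also chosen after seeing the data), the IκB kinase list kept 1 gene called higher in STHdhQ7 cells and the ligase list 1, against 0 each with limma on log2(TPM + 0.5). Without 1 library at a time, the Relb and Nfkb2 shares of TPM moved by less than the spread between replicates. The cause of these changes was not tested.

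Same-numbered libraries deviated together (correlation above 0.1) in 5 of 12 pairs, with correlations from -0.582 to 0.45. The labels do not say whether same-numbered libraries were handled together, and these mixed correlations cannot decide it. With a replicate block, 4, 3, 2, 4 and 1 members were called in the 5 comparisons (both responses, both line contrasts and the interaction), and the 1 call lost was Tnfaip3 in Q7-T vs. Q7-C (1.35, edgeR, adjusted p = 0.0764). A fit of only the groups compared was not possible for the interaction.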
